A study of Mus musculus with 4 samples.

Results

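The transfer RNAs (tRNAs) that carry leucine, serine, selenocysteine and tyrosine were examined in small RNA libraries from RAW264.7 cells, a mouse macrophage-like line, and from the extracellular vesicles these cells shed. A feature of the count table belonged to the group when its name held tRNA-Leu, tRNA-Ser, tRNA-SeC or tRNA-Tyr. This gave 52 features of 239 tRNA features and of 141239 features in all: 22 for leucine, 14 for serine, 1 for selenocysteine and 15 for tyrosine, with 12 anticodons. The cells of the control groups expressed a non-silencing short hairpin RNA (shNS), and those of the other groups a hairpin against Dis3l2 (shDis3l2), whose product is a cytoplasmic exonuclease for oligouridylated RNA. All 4 groups received doxycycline at 1 µg per mL to switch the hairpin on. After 3 days the medium was exchanged for one depleted of serum vesicles, and vesicles from the following 24 h were purified on a sucrose gradient and exposed to micrococcal nuclease. Each of the 4 groups (cells or vesicles, shNS or shDis3l2) is 1 library, so no value below has a replicate check and no p-value was computed for a single pair of libraries.

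A tRNA reads a codon through the 3 bases of its anticodon and delivers the matching amino acid to the ribosome. In eukaryotes the leucine, serine and selenocysteine tRNAs carry a long variable arm between the anticodon and T arms, whereas tyrosine tRNA has a short one. Seryl-tRNA synthetase recognises the long arm and charges both the serine tRNAs and tRNA-SeC, whose serine is then converted to selenocysteine for use at certain UGA codons. The genes of tRNA-Tyr and tRNA-Leu-CAA hold an intron that is cut out by an endonuclease before a ligase joins the exons. In a name such as tRNA-Leu-CAA-2-1, the letters are the anticodon, the first number is the sequence variant (the isodecoder set) and the last number is the gene copy. The table lists 9 of the 52 features with the prefix mature, all of them of the intron families Leu-CAA and Tyr-GTA. By their names these are taken here as spliced forms, and the plain features of the same families as unspliced ones.

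Some of these tRNA genes also lie inside longer transcripts that the table counts separately, and the sequences are shown because several results below turn on them. RefSeq names 57 nuclear Leu, Ser and Tyr tRNA genes (assembly GRCm38.p6) and gives them lengths of 82 or 83 nt for most Leu and Ser genes, 105 to 107 nt for Leu-CAA, 86 to 93 nt for Tyr-GTA and 73 nt for Ser-GGA. Its gene names are not tied to the numbered names of the table, so the link made here is by anticodon only. The transcripts are from GENCODE M21 (GRCm38), each 5′ to 3′, with capitals for the bases that lie in the RefSeq tRNA gene and lower case for the flanks. One transcript, n-TSaga9, is typed as a miRNA and holds a whole Ser-AGA gene. Of the 3 transcripts shown, Gm44456 is typed as a miRNA of 89 nt and holds the whole Ser-TGA gene n-TStga2 at chr13:21924935-21925016 (minus strand). The next, n-TStga1, has 109 nt and holds the Ser-TGA gene of that name at chr13:23518146-23518227 (plus strand). The last is a window of the long noncoding RNA B230208H11Rik, whose 1050 nt hold 80 of the 83 nt of the Leu-TAA gene n-TLtaa3 at chr10:12922571-12922653 (minus strand).
Gm44456: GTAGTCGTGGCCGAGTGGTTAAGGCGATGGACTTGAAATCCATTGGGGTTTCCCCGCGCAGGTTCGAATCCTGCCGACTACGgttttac
n-TStga1: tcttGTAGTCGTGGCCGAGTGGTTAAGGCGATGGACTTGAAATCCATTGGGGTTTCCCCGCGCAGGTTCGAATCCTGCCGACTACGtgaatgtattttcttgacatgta
B230208H11Rik: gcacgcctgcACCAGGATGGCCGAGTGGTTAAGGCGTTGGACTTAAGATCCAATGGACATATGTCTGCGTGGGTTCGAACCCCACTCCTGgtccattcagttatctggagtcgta
The n-TStga1 and n-TStga2 genes are identical over 82 nt. All 4 transcripts hold the T arm letters GGTTCGA in the sense direction, so each can take reads of the tRNA itself.

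The libraries held 17612856 to 19741041 estimated counts. Of 12 fixed macrophage markers 11 had counts, and their summed level was 131326 and 84726 CPM (counts per 1000000 counts) in the cell libraries and 35068 and 15465 CPM in the vesicle libraries. Mir223, a myeloid miRNA, was at 0 in every library, while its host transcript F630028O10Rik had counts. The erythroid and serum list (3 of 5 with counts) reached 7.12 to 53.8 CPM, the epithelial list (4 of 5) 13.4 to 39.3 CPM, and the muscle and neural lists (1 of 5 and 1 of 3) at most 1.92 CPM. Dis3l2 itself had 41.1 counts in cells with shNS but 13232 in the cell library labelled shDis3l2, and vesicles held 1713 and 1894. These are small RNA counts, so they do not measure the Dis3l2 mRNA or its knockdown, and what the reads came from was not tested. Because they go against the direction the label names, the second library of each pair is called the library labelled shDis3l2. Each ratio between labels is a ratio between those libraries. Levels below are CPM of all counts, without division by length. Ratios use a pseudocount of 0.5, and their 95% intervals are exact (conditional Clopper-Pearson) and cover counting error only. In bulk libraries, a different mix of cells or vesicles and a different RNA content of each cannot be told apart.

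Leucine tRNAs made up most of the group in vesicles but not in cells. Of the 52 features 50 had counts in at least 1 library and 40 in all of them, and tRNA-Ser-AGA-2-1 and tRNA-Ser-TGA-2-1 were at 0 throughout. The group took 0.129% of all counts in cells with shNS, 0.169% in the cell library labelled shDis3l2, 1.37% in vesicles with shNS and 1.43% in the vesicle library labelled shDis3l2. Its share of tRNA counts moved far less, from 3.19% and 3.26% in cells to 3.55% and 4.03% in vesicles. Within the group, leucine tRNAs went from 44.4% and 45.0% in cells to 72.2% and 72.6% in vesicles. Tyrosine tRNAs moved the other way, from 28.4% and 17.1% in cells to 5.92% and 4.38% in vesicles. Serine tRNAs held 24.1% and 27.2% in cells and 13.4% and 12.5% in vesicles. tRNA-SeC, 1 gene, held 3.13% of the group in cells with shNS and 10.6%, 8.48% and 10.5% in the other libraries.

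**Figure D1:**
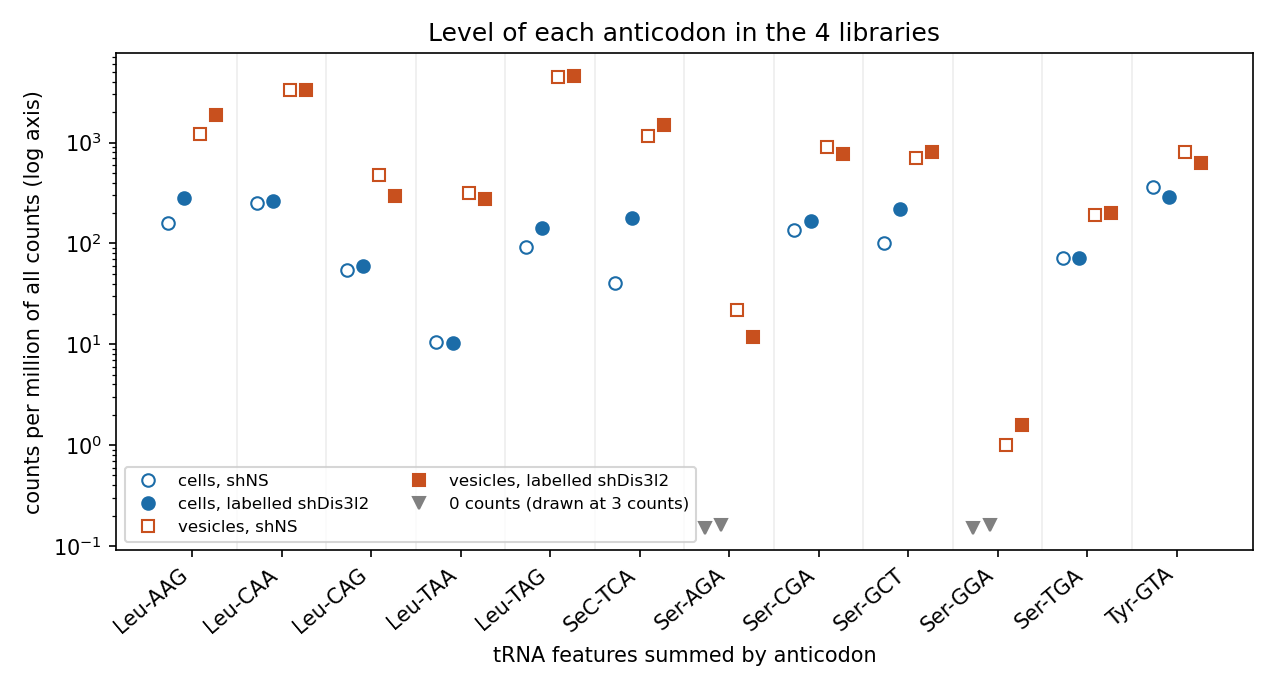
Level in CPM (log axis) for the group summed by anticodon, 1 point per library, with cells as blue circles and vesicles as orange squares (open for shNS, filled for the library labelled shDis3l2) and grey triangles for 0 counts drawn at the level of 3 counts. Both vesicle points lie above both cell points for all 12 anticodons, and SeC-TCA shows the widest gap between the cell libraries.

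The selenocysteine tRNA differed between the cell libraries by more than any other anticodon of the group, although a single serine gene, Ser-GCT-4-1, had a larger ratio there (5.95-fold, 4.98 to 7.20). It stood at 40.3 CPM in cells with shNS, 179 CPM in the cell library labelled shDis3l2, 1157 CPM in vesicles with shNS and 1505 CPM in the vesicle library labelled shDis3l2. Both vesicle values lay above both cell values, and within each compartment the library labelled shDis3l2 was the higher one. In cells the ratio between labels was 4.45-fold (95% interval 4.12 to 4.81, from 796 and 3304 counts). In vesicles it was 1.30-fold (1.28 to 1.32, from 21054 and 26500 counts). The log2 ratio in vesicles was 1.77 below that in cells (-1.77), and the counting intervals of the 2 ratios do not overlap. Vesicles exceeded cells 28.7-fold (26.7 to 30.8) under shNS and 8.39-fold (8.09 to 8.70) under the label shDis3l2.

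The serine tRNAs that read AGC and AGU codons, Ser-GCT, came next in the comparison of labels in cells. Ser-GCT stood at 102 and 221 CPM in the cell libraries and at 710 and 806 CPM in the vesicle libraries, shNS first. The ratio between labels was 2.17-fold (2.05 to 2.29) in cells and 1.14-fold (1.11 to 1.16) in vesicles. Its 2 main genes in cells moved alike there: Ser-GCT-3-1 had 1080 and 1901 counts (1.89-fold) and Ser-GCT-2-1 had 740 and 1294 counts (1.87-fold). In vesicles they parted. Ser-GCT-3-1 reached 9321 and 9692 counts, while Ser-GCT-2-1 had 1303 and 1115, a log2 ratio of vesicles to cells of 0.93 under shNS and -0.15 under the label shDis3l2. Ser-GCT-1-1 showed the largest vesicle excess of the serine genes with counts in every library, from 41.7 and 89.9 counts in cells to 2261 and 3250 in vesicles (57.7-fold under shNS, 43.1 to 81.3). Ser-GCT-4-1 ran opposite to its relatives, with 140 and 780 counts in cells and 0 and 116 in vesicles. That is at least 43.0-fold lower in vesicles under shNS, against a floor of 3 counts, and 6.41-fold lower (5.29 to 7.88) under the label shDis3l2. How an estimator divides reads among genes that share an anticodon can move these single-gene values while leaving the anticodon sum as it is. The sequences of these features were not compared, and that division was not tested.

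In cells Ser-CGA and Ser-TGA differed less between labels than Ser-GCT did. Ser-CGA stood at 136 and 165 CPM in cells and 904 and 767 CPM in vesicles. Its label ratio was 1.22-fold higher in cells (1.16 to 1.28) and 1.18-fold lower in vesicles (1.15 to 1.21). The lower value in vesicles came from Ser-CGA-1-1, with 4640 and 2226 counts (2.02-fold lower, 1.92 to 2.12), and Ser-CGA-3-1, with 1586 and 806 counts (1.90-fold lower), whereas Ser-CGA-2-1, with the most counts of the 3, had 10211 and 10471. Ser-TGA, counted on Ser-TGA-1-1 alone, stood at 72.4 and 72.2 CPM in cells and 193 and 201 CPM in vesicles. On that feature the interval of the label ratio included 1 in both compartments. With the counts of Gm44456 and n-TStga1 added, Ser-TGA was 1.19-fold higher (1.12 to 1.28) in the cell library labelled shDis3l2. In vesicles it was then 1.17-fold lower (1.14 to 1.19) under that label. Ser-AGA had 0 counts in both cell libraries, which allows up to 0.152 and 0.163 CPM, and 22.0 and 11.9 CPM in vesicles. Ser-GGA, a single gene, was at 0 in cells and at 1.01 and 1.58 CPM in vesicles.

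Among anticodons with counts in every library, Leu-TAG, which reads CUA, had the largest vesicle excess under both labels. Leu-TAG stood at 92.3 and 144 CPM in cells and at 4493 and 4619 CPM in vesicles, with no overlap between compartments. Vesicles exceeded cells 48.7-fold (46.5 to 51.0) under shNS and 32.1-fold (30.9 to 33.4) under the label shDis3l2. All 3 of its genes shared the pattern: Leu-TAG-1-1 had 721, 1344, 36299 and 40209 counts in the order cells shNS, cells labelled shDis3l2, vesicles shNS and vesicles labelled shDis3l2. Leu-TAG-3-1 had 878, 957, 36823 and 35476 counts, and Leu-TAG-2-1 had 222, 347, 8608 and 5663. The 3 genes differed in the comparison of labels, where Leu-TAG-1-1 was just under 2-fold higher in cells (log2 1.00, 721 against 1344 counts) and Leu-TAG-3-1 only 1.17-fold.

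Leu-CAA, which reads UUG and whose genes hold an intron, was level between labels. It stood at 254 and 265 CPM in cells and at 3361 and 3302 CPM in vesicles, a vesicle excess of 13.2-fold (12.9 to 13.6) and 12.5-fold (12.1 to 12.9). Its 3 main mature features took similar shares of the vesicle counts, 18227 to 20209 under shNS. In cells they were less alike: mature Leu-CAA-4-1 had 2344 and 1380 counts (1.58-fold lower in the library labelled shDis3l2), and mature Leu-CAA-3-1 had 1232 and 1995 counts. Leu-TAA stood at 10.6 and 10.3 CPM in cells and 314 and 278 CPM in vesicles, an excess of 29.8-fold (26.0 to 34.4) and 27.0-fold (23.4 to 31.4). Leu-AAG, which reads CUU and CUC, stood at 160 and 281 CPM in cells and 1211 and 1877 CPM in vesicles. It was higher in the library labelled shDis3l2 in both compartments, 1.76-fold (1.68 to 1.84) in cells and 1.55-fold (1.52 to 1.58) in vesicles. In cells all of its counts were on Leu-AAG-1-1, while Leu-AAG-2-1 and Leu-AAG-3-1 were at 0 in cells and had 867 and 2854, and 3532 and 2735 counts in vesicles. These are bounds of at least 314-fold and 995-fold higher in vesicles for Leu-AAG-2-1, and at least 1278-fold and 953-fold for Leu-AAG-3-1, against 3 counts in the cell library of the pair. The bounds cover counting error only, and how the estimator divided reads among the Leu-AAG genes was not tested. Summed, Leu-AAG was 7.58-fold higher in vesicles under shNS and 6.68-fold under the label shDis3l2. Leu-CAG stood at 55.0 and 59.8 CPM in cells and 481 and 293 CPM in vesicles, and was 1.64-fold lower (1.59 to 1.70) in the vesicle library labelled shDis3l2. Ser-AGA was 1.84-fold lower there, but with the counts of n-TSaga9 added its log2 ratio was 0.63, in the other direction. The Leu-CAG difference lay mainly in Leu-CAG-1-1, with 7218 and 3960 counts.

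**Figure D2:**
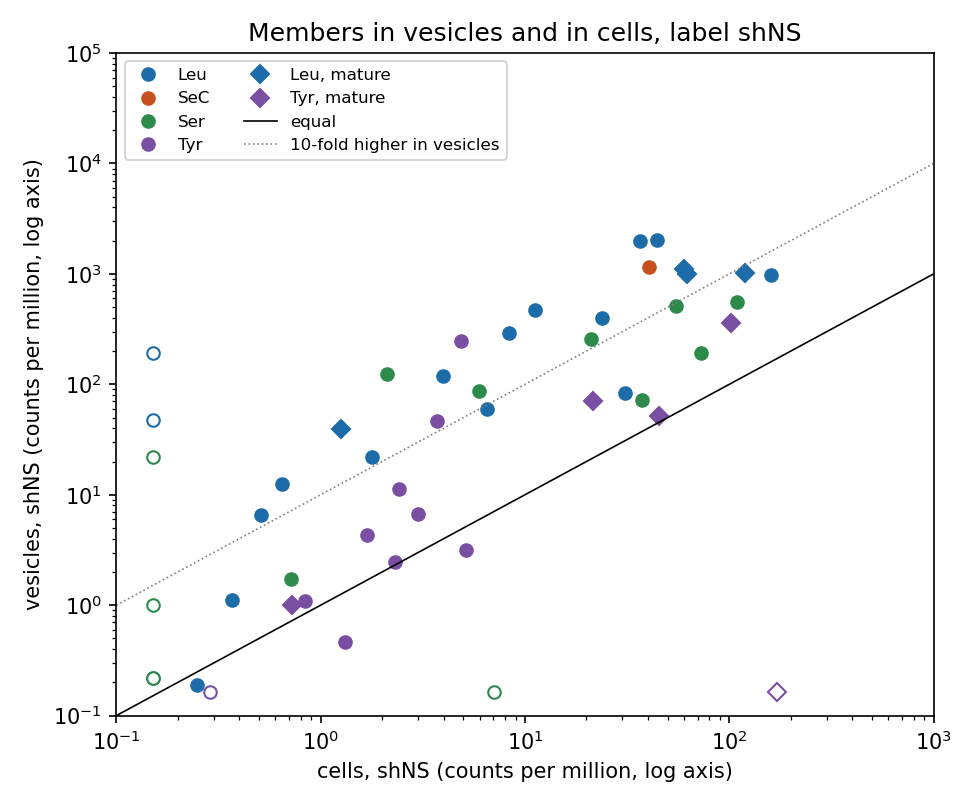
Each member's level in cells (x axis) and in vesicles (y axis) under shNS, in CPM on log axes, coloured by amino acid, with diamonds for mature features and open symbols for members at 0 in 1 of the libraries, drawn at 3 counts. Leu-TAG-1-1, Leu-TAG-3-1 and SeC lie above the dotted 10-fold line, several Tyr features lie near the line of equal levels, and mature Tyr-GTA-3-1 (171 CPM in cells, 0 in vesicles) lies at the bottom right.

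Tyrosine tRNA had the smallest vesicle excess of the isotypes and, on library totals, was lower in the library labelled shDis3l2 in both compartments. Tyr-GTA stood at 366 and 289 CPM in cells and 808 and 626 CPM in vesicles. Vesicles exceeded cells 2.21-fold (2.14 to 2.27) under shNS and 2.17-fold (2.10 to 2.24) under the label shDis3l2. The label ratio was 1.27-fold lower in cells (1.22 to 1.31) and 1.29-fold lower in vesicles (1.26 to 1.32). The mature and unspliced features did not move together. Summed mature Tyr features were 1.42-fold higher in vesicles under shNS (1.38 to 1.47), and summed unspliced ones 12.6-fold higher (11.5 to 13.8).

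Set 3 of tRNA-Tyr accounted for that split. Mature Tyr-GTA-3-1 had 3384 and 2132 counts in cells, the highest of the group under shNS, and 0 in both vesicle libraries. Unspliced Tyr-GTA-3-1 had 96.4 and 197 counts in cells and 4493 and 4237 in vesicles. Unspliced features thus took 4.78% and 10.5% of the counts of set 3 in cells, but 100% in vesicles (exact intervals from 99.9%). Summed over both forms, set 3 stood at 180.0 and 129 CPM in cells and 293 and 279 CPM in vesicles, a vesicle excess of 1.63-fold and 2.15-fold. Without set 3, a choice made after its values were seen, tRNA-Tyr had an unspliced share of 9.11% and 8.11% in cells, with 5.74% and 10.3% for vesicles, against 6.98%, 9.21%, 40.0% and 50.2% with it. Whether the estimator placed reads of shared exons on the unspliced feature of set 3 was not tested.

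**Figure D3:**
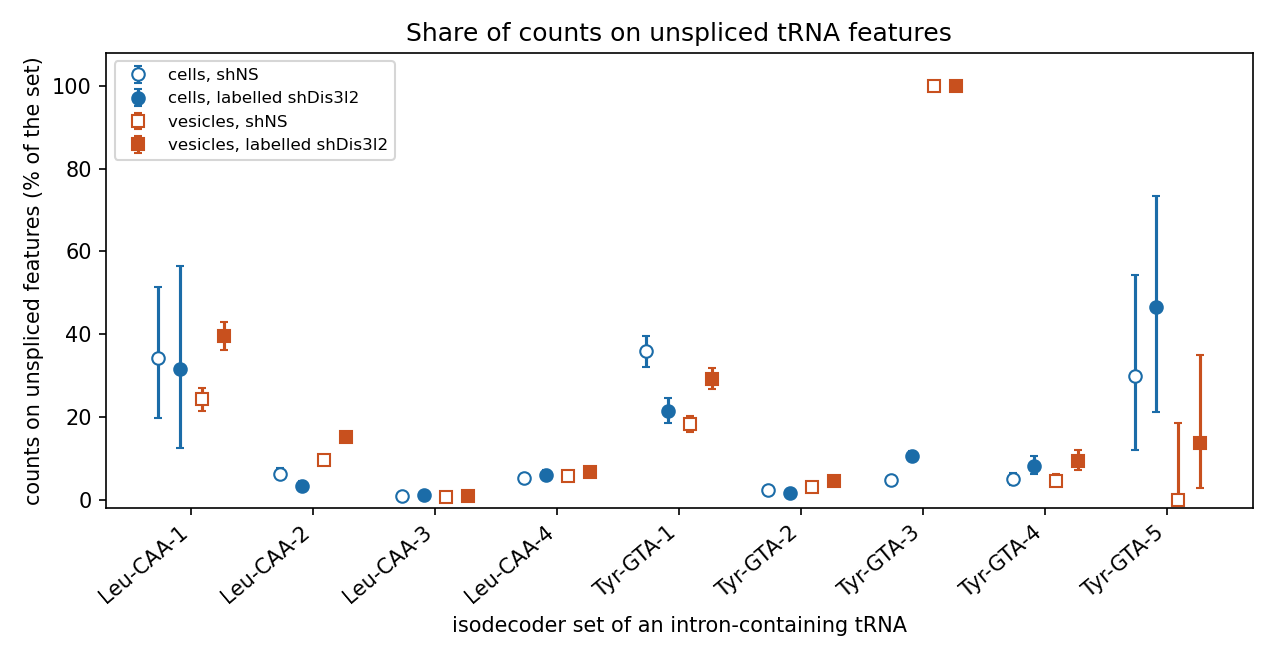
Percentage of each set's counts that lie on unspliced features, for the 4 sets of tRNA-Leu-CAA and 5 sets of tRNA-Tyr, with exact 95% intervals of counting error and 1 point per library. Tyr-GTA-3 is at 100% in both vesicle libraries and at 4.78% and 10.5% in cells, and no other set passes 50% in any library.

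Leu-CAA, the other intron family of the group, showed a small shift in the same measure. In cells its unspliced share was 4.59% (4.02 to 5.20) and 3.28% (2.80 to 3.82), and in vesicles 5.87% (5.68 to 6.06) and 8.49% (8.26 to 8.72) in vesicles. Leu-CAA-2-1 carried most of it, with 78.8 and 46.1 unspliced counts in cells, against 2150 and 3357 for vesicles. The intron families outside the group had lower unspliced shares in vesicles than in cells: Arg-TCT went from 4.22% and 5.04% to 0.428% and 0.910%, and Ile-TAT from 62.0% and 69.3% to 22.5% and 36.2%.

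Counted by a fixed rule of size (at least 2-fold, an interval that excludes 1, and at least 100 counts over the 2 libraries), few members differed between labels. In cells 4 of 29 members were higher in the library labelled shDis3l2, beside 18.2% of all 2740 features, and 0 were lower, beside 7.23%. The 4 were SeC-TCA-1-1, Ser-GCT-1-1, Ser-GCT-4-1 and the unspliced Tyr-GTA-3-1 (2.19-fold, from 96.4 and 197 counts). Summed by anticodon, 2 of 10 were higher, SeC-TCA and Ser-GCT. In vesicles 2 of 38 members were higher, beside 16.8% of 8531 features, and 1 was lower, beside 5.59%. The higher ones were Leu-AAG-2-1 (3.40-fold, 3.15 to 3.67) and Ser-GCT-4-1 (0 against 116 counts, at least 39.9-fold), and the lower one was Ser-CGA-1-1. None of 11 anticodons passed in vesicles in either direction. Of the other tRNA features 10 of 93 were higher and 6 lower in cells, and 14 of 120 higher and 10 lower in vesicles. The members' median log2 ratio was 0.26 in cells, with 0.21 for other tRNAs and 0.12 for all features, and -0.05 in vesicles, with 0.05 and 0.34.

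**Figure D4:**
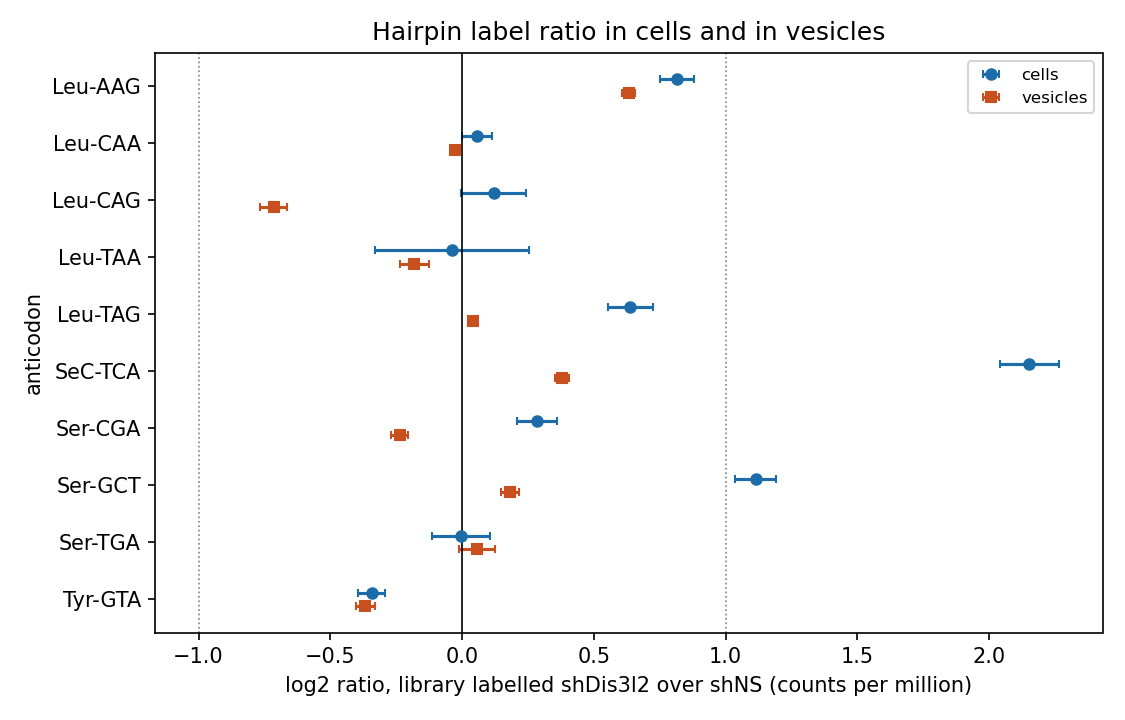
Log2 ratio of the library labelled shDis3l2 over shNS for each anticodon in cells (circles) and vesicles (squares), with 95% intervals of counting error and dotted lines at 2-fold; Ser-AGA and Ser-GGA, at 0 in cells, are left out. In cells SeC-TCA (2.15) and Ser-GCT (1.11) lie beyond the dotted line, and in vesicles none does.

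Most members were at a higher CPM in vesicles, as were most features of any kind. Under shNS 33 of 38 members were at least 2-fold higher in vesicles, beside 74.5% of 6129 features, and 2 were lower, beside 17%. Under the label shDis3l2 31 of 38 were higher, beside 77.3% of 6876 features, and 2 were lower, beside 16.1%. The 2 lower members were in each case Ser-GCT-4-1 and mature Tyr-GTA-3-1. Members' shares were close to those of the other tRNA features, of which 94 of 109 and 92 of 113 were higher. The members' median log2 ratio was 3.62 and 3.09, with 3.14 and 3.11 for other tRNAs and 2.73 and 3.03 for all features. Both comparisons across compartments use different libraries, whereas each shares 1 library with each comparison of labels. A TMM scale lowered every vesicle to cell log2 ratio by 0.71 and 0.86, which left the median of all features at 2.03 and 2.17.

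Set against the total of all tRNA features, the anticodons of the group split. Leu-CAA, Leu-TAA, Leu-TAG, SeC-TCA and Ser-AGA were above the tRNA total in vesicles under both labels, 5 of 11 anticodons. The tRNA total itself was 9.54-fold higher in vesicles under shNS and 6.84-fold under the label shDis3l2. Leu-AAG, Leu-CAG, Ser-CGA, Ser-GCT, Ser-TGA and Tyr-GTA were below it under both labels. With the 4 transcripts that hold a tRNA gene added to their anticodons, Ser-AGA was below it under both labels (log2 vesicle to cell ratio -0.40 and -0.69), Ser-TGA was above it under both (3.91 and 3.43), and Leu-TAA was below it under shNS (3.16) and above it under the label shDis3l2 (3.29). The group as a whole lay 0.15 and 0.31 above the tRNA total on the log2 scale.

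Compartment and label were also fitted together over the 4 libraries with edgeR's quasi-likelihood test, in which 1 residual degree of freedom is the error. For the compartment 0 of 44 members passed an adjusted p of 0.05, beside 0% of 21813 features, and for the label 0 of 44, beside 0%. At an unadjusted p under 0.05, 20 members were higher and 4 lower in vesicles, and 0 differed between labels. DESeq2 called 3 of 43 members higher in vesicles (Leu-AAG-2-1, Leu-AAG-3-1 and Ser-AGA-1-1), beside 6.54% of 20233 features, and 2 lower (Ser-GCT-4-1 and mature Tyr-GTA-3-1), beside 2.97%. It called 0 of 50 between labels, with 1 at an unadjusted p under 0.05. For neither fit was the share of all features at an unadjusted p computed, so the unadjusted counts have no background to be read against. All 5 calls between compartments are on members with a library at 0.

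Adding the 4 transcripts described above changed the serine result most. n-TSaga9 had 1555 and 2756 counts in cells and 689 and 1426 in vesicles. It lay 2.08-fold lower in vesicles under shNS (1.90 to 2.28) and 1.85-fold lower (1.73 to 1.97) under the label shDis3l2. Ser-AGA with n-TSaga9 added was therefore lower in vesicles, 1.32-fold (1.22 to 1.42) and 1.61-fold (1.51 to 1.71), whereas the tRNA features alone gave bounds of at least 145-fold and 73.2-fold higher. Between labels n-TSaga9 was 1.90-fold higher in cells (1.78 to 2.02) and 2.14-fold higher in vesicles (1.95 to 2.34) in the library labelled shDis3l2.

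Gm44456, with a Ser-TGA gene, moved the opposite way to n-TSaga9. It had 119 and 443 counts in cells and 18908 and 14962 in vesicles, against 3509 and 3533 on Ser-TGA-1-1 in vesicles. Vesicles exceeded cells 172-fold (144 to 208) and 35.3-fold (32.1 to 38.9). n-TStga1, with the same 82 bases and other flanks, had 75.8, 35.6, 32.4 and 124 counts. Ser-TGA with both transcripts added was 15.0-fold (14.3 to 15.8) and 10.8-fold (10.3 to 11.3) higher in vesicles, against 2.67-fold and 2.78-fold on the tRNA feature alone. B230208H11Rik had 3035, 2299, 21037 and 18325 counts, several times those of the Leu-TAA features. Leu-TAA with it was 8.95-fold (8.63 to 9.29) and 9.75-fold (9.36 to 10.2) higher in vesicles, against 29.8-fold and 27.0-fold. Counts on these transcripts carry no positions, so which of their reads came from the tRNA part was not tested.

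**Figure D5:**
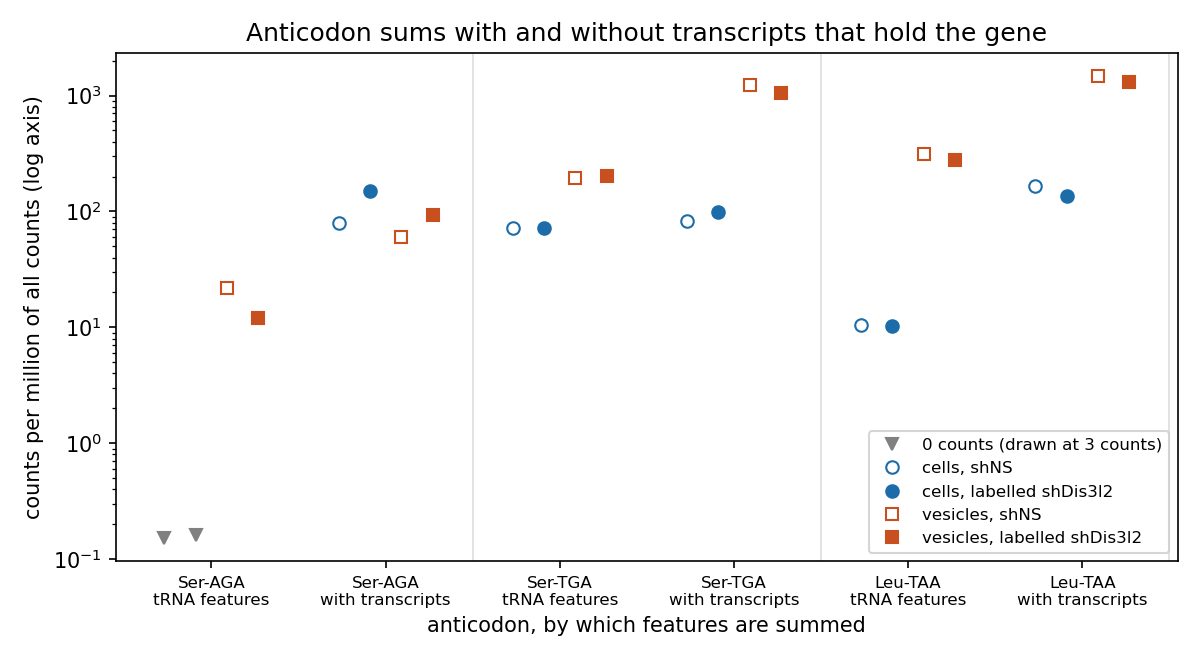
Level in CPM (log axis) for Ser-AGA, Ser-TGA and Leu-TAA, from the tRNA features alone and with the transcripts that hold such a gene added, 1 point per library, grey triangles marking 0 counts drawn at 3 counts. With n-TSaga9 added, Ser-AGA in each vesicle library lies below the cell library of the same label, while Ser-TGA and Leu-TAA stay higher in vesicles.

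RNA fragments of genes of the tRNA pathway were counted in the same libraries, from a list of 58 genes of charging, splicing, end processing, transport, transcription and decay. In cells 2 of 13 measured genes were higher in the library labelled shDis3l2, beside 13.8% of all genes: Elac2, which cuts the tRNA 3′ trailer (42.9 and 166 counts, log2 2.04), and Dis3l2. For Dis3l2, the target of the hairpin, what the reads came from was not tested. None of the 13 genes was lower, beside 4.97%. In vesicles 4 of 44 were higher, beside 10.4%, and 0 lower, beside 2.42%. They included Rtcb, which encodes the tRNA ligase (158 and 470 counts, log2 1.62). Also among them were the mitochondrial synthetase genes Sars2 (111 and 222 counts, log2 1.04) and Lars2 (24018 and 57830 counts, log2 1.31). The Lars2 counts lay far above those of the other synthetase genes, and what these reads came from was not tested. The cytosolic synthetase genes Sars, Lars and Yars had log2 label ratios in vesicles of -0.50, -0.34 and 0.22, and Sepsecs, which makes selenocysteine on its tRNA, had 0.85. Vesicles exceeded cells for 29 of 35 genes under shNS, beside 74.5%, and 33 of 37 under the label shDis3l2, beside 76.9%. Brf1, a subunit of the polymerase III initiation factor, was lower in vesicles in both cases (log2 -1.20 and -1.79), and Dis3l2 under the label shDis3l2 (log2 -2.74), so 1 and 2 genes were lower, beside 13.8% and 13.1%. The list's median log2 ratios, 0.14 and 0.34 between labels and 2.28 and 2.57 between compartments, lay near those of all genes, 0.10, 0.31, 2.17 and 2.41.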

How the data were processed

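Small RNA of 4 libraries was measured, 1 per group. Per the labels' protocols, the QIAseq miRNA kit was used and 50 nt reads came from a NextSeq sequencer. Per the submitters' processing notes, cutadapt, Salmon and Novoalign were used with builds GRCm38 and mm10; versions are not given in the sources used here, nor is whether reads were collapsed to molecules. The deposited values are estimated counts per feature as the authors' estimator divided them, of which 6.56% are whole within 0.001. They were rounded before intervals and fits were computed.

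Each feature was scaled to the total of its library (CPM), which differs between compartments in make-up. The 4 comparisons, the rule of size and the intervals are those given with the results. The fits used edgeR 4.0.16 (TMM factors, filterByExpr, Benjamini-Hochberg) and DESeq2 1.42.0 in R 4.3.3; the rest used Python 3.11.15. The calls, the intervals and the label term of the edgeR fit were tested on simulated counts. The compartment term and the DESeq2 fit were not. Named members are every anticodon, the 5 largest and 5 smallest ratios per comparison among members with at least 50 CPM and an interval that excludes 0, the 10 most abundant per library, SeC, the mitochondrial Leu, Ser and Tyr tRNAs, and list genes with at least 100 counts; others named in the text were chosen after their values were seen. The members and lists were chosen with earlier results of these data known. Alternatives were 4 other scales, count minimums of 10 and 1000, a pseudocount of 5, thinning to the smallest total, the addition of n-TSaga9 and n-TStga1, and, chosen after the data were seen, the addition of all 4 transcripts that hold a tRNA gene in the sense direction. Some items are not reported here.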

Additional observations from a re-analysis of the deposited data

Results flagged for a closer look

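Several tRNAs had label ratios of opposite sign in cells and in vesicles, with both counting intervals excluding equality; with 1 library per group the difference itself was not tested. The log2 label ratio in vesicles minus that in cells was 1.36 for tRNA-Leu-CAA-2-1, -1.44 for tRNA-Leu-TAA-2-1, -1.33 for tRNA-Ser-CGA-1-1, -1.30 for tRNA-Leu-TAG-2-1, -1.08 for tRNA-Ser-GCT-2-1, -0.96 for mature tRNA-Tyr-GTA-1-1, -0.52 for the anticodon Ser-CGA, -0.31 for mature tRNA-Leu-CAA-2-1 and -0.084 for the anticodon Leu-CAA. The opposite signs depend on the scale: of 4 other scales they held on 4 for tRNA-Leu-CAA-2-1, on 2 for the anticodon Ser-CGA, on 1 for the anticodon Leu-CAA, and on 3 for each of the others. On the tRNA total both signs were turned for the anticodon Leu-CAA and for mature tRNA-Leu-CAA-2-1. For Leu-CAA the ratios in cells and in vesicles were -0.036 and -0.27 with TMM factors and 0.22 and 0.83 on the miRNA total, and for Ser-CGA -0.076 and -0.12 on the tRNA total.

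Transcripts outside the tRNA features that hold one of these tRNA genes had counts far above the limit that a count of 0 allows. The highest counts of each in any library were 21037 for B230208H11Rik and 18908 for Gm44456, both in vesicles with shNS, and 2756 for n-TSaga9 in the cell library labelled shDis3l2.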

How the results depend on the processing

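The scale decides most of these values. In the comparison of labels in cells, the log2 ratio of the summed members was 0.39 on library totals, 0.29 with TMM factors, 0.31 with DESeq2 size factors, 0.028 on the tRNA total, 0.55 on the miRNA total and 0.42 with n-TSaga9 and n-TStga1 added. In vesicles it was 0.07, and turned negative under TMM scaling (-0.18) and DESeq2 scaling (-0.13), with 0.19 on the tRNA total, 0.93 on the miRNA total and 0.033 with all 4 transcripts added. For vesicles against cells under shNS it was 3.41, against 2.70 (TMM), 2.58 (DESeq2), 0.15 (tRNA total), 5.24 (miRNA total), 3.32 (n-TSaga9 and n-TStga1 added) and 3.38 (all 4 transcripts added). Under the label shDis3l2 it was 3.08, against 2.22, 2.14, 0.31, 5.62, 2.97 and 3.03 in the same order. The cause was not tested.

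Members at least 2-fold higher between labels in cells numbered 4, against 2 on the tRNA total, 8 on the miRNA total and 1 with at least 1000 counts, and lower ones 0, against 2 on the tRNA total and 2 with at least 10 counts. In vesicles the higher ones numbered 2, against 12 on the miRNA total, 4 with at least 10 counts and 1 with at least 1000. The lower ones numbered 1, against 4 with TMM or DESeq2 factors, 0 on the tRNA or miRNA total and 2 with at least 10 counts. Between compartments under shNS, higher members fell to 12 of 38 on the tRNA total and lower ones went from 2 to 12, or to 1 with at least 1000 counts. Under the label shDis3l2 they came to 13 higher and 10 lower on the tRNA total, and to 1 lower on the miRNA total or with at least 1000 counts. A pseudocount of 5 and thinning kept every count within 1.5-fold. No share over all features is given at these other settings, so the counts are not a result about the members. On the miRNA total the median log2 label ratio in vesicles was 1.20 for all features and 0.82 for members. In cells it was 0.27 and 0.42. On the tRNA total the median vesicle to cell ratio under shNS was -0.52 for all features and 0.36 for members. Under the label shDis3l2 it was 0.25 and 0.32.

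On the tRNA total the vesicle to cell log2 ratio turned negative for Leu-AAG (-0.33 under shNS and -0.033 under the label shDis3l2), Leu-CAG (-0.13 and -0.48), Ser-CGA (-0.52 and -0.56), Ser-GCT (-0.46 and -0.91), Ser-TGA and Ser-TGA-1-1 (-1.84 and, for the anticodon, -1.30), Tyr-GTA (-2.11 and -1.66), all serine tRNAs (-0.69 and -0.81), Leu-CAG-2-1 (-1.81 and -1.72) and, under the label shDis3l2, mature Tyr-GTA-2-1 (-1.33). Ser-AGA turned to -0.40 and -0.69 with n-TSaga9 added, and its label ratio in vesicles went from -0.88 to 0.63. The label ratio of Leu-AAG in vesicles fell to 0.39 with TMM factors and 0.43 with DESeq2 factors, and that in cells to 0.45 on the tRNA total. On the miRNA total the label ratio in vesicles was above 0 for 10 of 11 anticodons, against 5 on library totals. Tyr-GTA went from -0.37 to 0.49 there, and Leu-CAG from -0.72 to 0.15. Members past the additive fit of the compartment numbered 0 with edgeR, also on library totals, 5 of 43 with DESeq2 (beside 1323 higher and 601 lower of 20233 features) and 24 with edgeR and no filter (beside 4470 higher and 1736 lower of 90129). For the label, 1 passed with edgeR and no filter, beside 122 higher and 104 lower features. No paired analysis was possible because each group has 1 library, other than the fit of compartment and label together, which sets the compartments against each other within each label. No library could be left out for the same reason. Depth limits the single genes: 3 counts in a library correspond to 0.152 to 0.170 CPM.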

Other observations

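The mitochondrial tRNAs for the same amino acids were distributed the other way round from the nuclear ones. mt-Ts2, the serine tRNA of the mitochondrial genome that lacks a D arm, had 94646 and 108452 counts in cells and 894 and 945 in vesicles, 97.5-fold (91.3 to 104) and 109.7-fold (103 to 117) lower in vesicles. Summed over mt-Tl1, mt-Tl2, mt-Ts1, mt-Ts2 and mt-Ty, the log2 ratio of vesicles to cells was -6.50 under shNS and -6.75 under the label shDis3l2. The summed nuclear members had 3.41 and 3.08. Between labels the mitochondrial sum had log2 ratios of 0.35 in cells and 0.10 in vesicles, and mt-Ts1, with 0.88 in cells, was the most different of the 5. No other transcript of the annotation was added to these counts.

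One annotated transcript, Gm48356, holds the Ser-GCT gene n-TSgct5 in the antisense direction. It had 9.18, 2.17, 2.56 and 10.9 counts in the libraries and was left out of the sums.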
